A study of Mus musculus with 24 samples.

Results

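Engulfment receptors let a phagocyte recognise, bind and take up a dying cell. The genes described here are 9 that encode such receptors and the secreted ligands that bridge them to the target: Timd4, Megf10, Stab1, Mertk, Axl, Tyro3, Gas6, Pros1 and Mfge8. They were taken by gene symbol from a count table of 24421 genes, and all 9 passed the filter on low counts that left 15385 genes to test. They were selected on treatment differences in gene level between groups of these same libraries, so their own differences between treatments are given as a description, and the adjusted p printed beside a difference only places the gene among all genes tested.

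RNA was sequenced from whole sciatic nerve of mice in 4 treatment groups of 6 libraries. Every group, the control included, carried the genotype Nf1 flox/flox PostnCre+, in which Cre recombinase is driven by Postn and deletes the tumour suppressor gene Nf1 from cells of the Schwann lineage; the labels give the stage as plexiform neurofibroma, a benign nerve tumour. For 1 week the mice were given vehicle alone, LY3214996, which inhibits ERK1/2 (group ERKi), abemaciclib, which inhibits CDK4/6 (group CDKi), or LY3214996 together with abemaciclib (group combination). No group had intact Nf1, and the age of the mice is not given in the sources used here. Libraries are named by group and a number that carries no order; nothing in the labels says that they came from separate mice, so a p-value measures the spread between these samples, which may be partly technical.

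A dying cell turns the lipid phosphatidylserine to its outer surface, and phagocytes read it either directly or through a soluble bridge. TIM-4, the product of Timd4, and stabilin-1, the product of Stab1, bind the lipid themselves; TIM-4 marks long-lived resident macrophages in many tissues. MERTK, AXL and TYRO3, the TAM receptor tyrosine kinases, bind it through GAS6 and protein S, and MFG-E8 links it to integrins. MEGF10 is a glial engulfment receptor that also recognises the complement protein C1q. In peripheral nerve, macrophages and Schwann cells both clear dead cells and myelin debris.

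The promoter windows of Timd4 and Stab1 are shown because both receptors belong to resident macrophages, and only the first was among the genes that differed between combination and vehicle. RefSeq windows on GRCm38.p6, from 250 bases before to 50 bases after the start site, were found for 8 of the 9 genes. Motifs were searched on both strands in these windows and in 32544 distinct windows of the same length: the ETS-IRF composite (GGAA and GAAA with any 2 bases between), the ETS site CCGGAAGT, the AP-1 site TGANTCA and the TATA box TATAAA. The composite and the ETS site share the letters GGAA. The part of each window upstream of the gene as RefSeq annotates it is printed 5′ to 3′ on the strand of the gene, with a match to the ETS-IRF composite in capitals. The RefSeq gene begins 14 bases (Timd4) and 10 bases (Stab1) upstream of the GENCODE gene model whose positions are given further on, and those bases are not printed.
Timd4, chr11:46810549-46810785, plus strand: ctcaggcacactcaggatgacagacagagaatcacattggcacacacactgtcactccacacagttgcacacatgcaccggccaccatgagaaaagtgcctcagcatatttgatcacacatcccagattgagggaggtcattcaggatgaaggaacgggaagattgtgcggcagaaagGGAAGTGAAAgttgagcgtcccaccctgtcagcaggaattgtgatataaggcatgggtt
Stab1, chr14:31168652-31168891, minus strand: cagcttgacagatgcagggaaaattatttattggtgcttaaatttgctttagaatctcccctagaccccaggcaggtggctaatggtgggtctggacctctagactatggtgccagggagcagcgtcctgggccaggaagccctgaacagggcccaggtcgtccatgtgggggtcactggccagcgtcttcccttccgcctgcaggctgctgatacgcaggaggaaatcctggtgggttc
The capitals mark GGAAGTGAAA, at chr11:46810727-46810736, 72 bases upstream of the start site in the window. Timd4 was the only one of the 8 windows with this motif, which 2.73% of all windows held. None of the 8 held the ETS site, the AP-1 site or the TATA box, against 3.92%, 7.79% and 13.6% of all windows. A match in these letters is a description of the window and not a bound site.

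Depth ran from 5391543 counts in vehicle 3 to 42321550 in vehicle 2 and was between 12096063 and 24676846 in every ERKi, CDKi and combination library. Levels are in CPM, counts scaled to the library total. Alb, which encodes albumin of the liver, was at 3160 to 4540 CPM in 3 libraries (CDKi 1, CDKi 3 and ERKi 3) and at most 1.61 CPM elsewhere. In 6 libraries (vehicle 1 and 5, CDKi 3 and 5, combination 3 and 5), called neuron-poor below, 10 sensory neuron markers summed to 46.4 to 400 CPM. The other 18 libraries held 1210 to 6650 CPM of them, so most libraries were rich in sensory neuron transcripts. Where this RNA came from was not tested. Nf1 averaged 359 ± 48.7 CPM in vehicle and 341 ± 27.1 CPM in combination (SD, n = 6 each); a gene level does not show what share of cells carried the deletion. In whole tissue, fewer cells of a type and less RNA per cell cannot be told apart.

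Per kilobase of exon, the order of the 9 genes in the vehicle nerve was led by Axl at 86.8 ± 22.4 CPM per kb (mean ± SD, n = 6). Pros1 followed at 32.3 ± 6.03 and Mertk at 31.7 ± 15.8 CPM per kb, which lay within the spread of each other. Gas6 at 20.2 ± 3.57 and Megf10 at 18.8 ± 3.54 CPM per kb also overlapped. Stab1 stood at 9.88 ± 1.61, Mfge8 at 7.08 ± 0.936, Tyro3 at 2.05 ± 0.359 and Timd4 at 1.65 ± 0.728 CPM per kb. Neighbours overlapped in the range of their libraries for Mfge8 and Stab1 and for Timd4 and Tyro3, while the lowest vehicle library of Axl, at 63.4 CPM per kb, lay above the highest of all the others, the 62.5 CPM per kb of Mertk. The TAM receptors span most of the range, with Axl at its top and Tyro3 near its bottom.

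**Figure D1:**
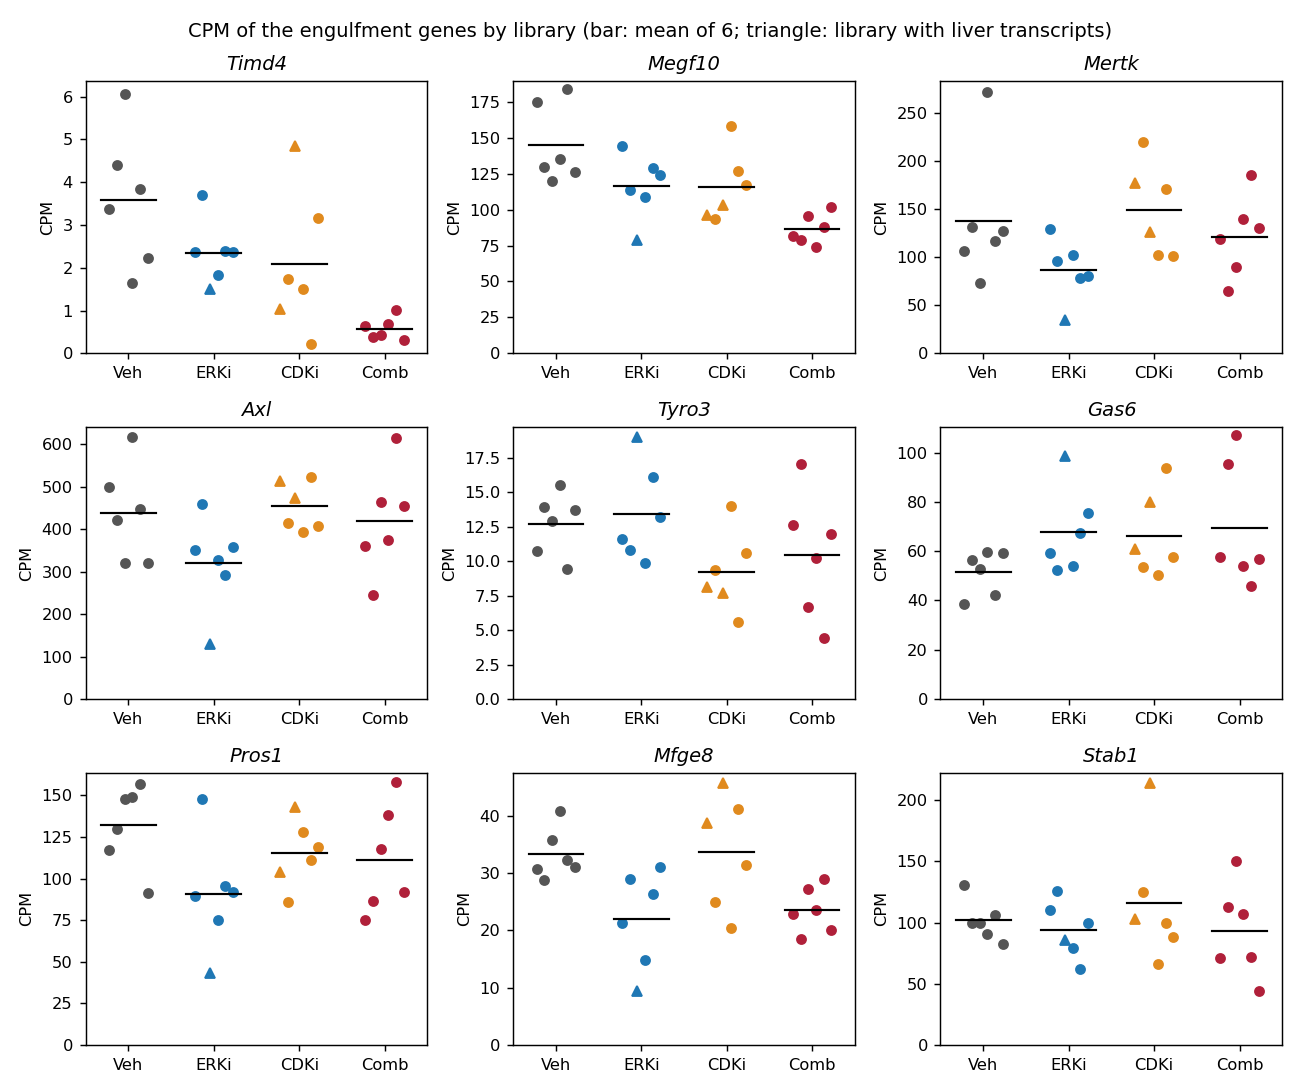
CPM of each of the 9 genes (vertical axis from 0) in the 6 libraries of each group, with the mean as a bar and the 3 libraries with liver transcripts as triangles. Timd4 and Megf10 are the panels in which every combination point lies below every vehicle point.

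Timd4 (chr11:46810800-46844332 on GRCm38, plus strand) had the lowest levels and the largest difference. Vehicle libraries 1 to 6 held 3.37, 4.39, 6.07, 1.65, 3.84 and 2.23 CPM. The combination libraries held 0.639, 0.38, 0.437, 0.693, 1.01 and 0.3 CPM, from only 5 to 16 reads each against 30 to 189 in vehicle. Every combination library lay below every vehicle library, as for 0.578% of all tested genes. ERKi libraries spanned 1.5 to 3.69 CPM (median 2.36) and CDKi libraries 0.215 to 4.84 CPM (median 1.62), both overlapping vehicle. CDKi varied most: its highest library, CDKi 3, contained liver transcripts and its lowest, CDKi 5, had 4 reads.

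In the fit over all genes, Timd4 was 6.05-fold lower in combination than in vehicle (log2 difference -2.60 ± 0.50, where ± is 1 SE; adjusted p = 0.0361 by the quasi-likelihood test of edgeR). The differences for the single agents were -0.59 ± 0.45 for ERKi (adjusted p = 0.676) and -0.78 ± 0.46 for CDKi (adjusted p = 1). Against ERKi, combination was lower by a log2 difference of -2.01 ± 0.49 with no overlap between the libraries (lower without overlap were 0.208% of all tested genes), but the adjusted p over all genes was 0.392. Against CDKi it was -1.82 ± 0.49 (adjusted p = 0.318), with CDKi 5, at 0.215 CPM, below every combination library. The departure of the combination from the sum of both agents was -1.23 ± 0.66 (95% interval -2.60 to 0.14), an interval that includes 0, with an adjusted p of 0.988.

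Resident macrophage markers were set beside Timd4, since this is the cell that TIM-4 marks. The 6 markers Lyve1, Folr2, Cd163, Mrc1, F13a1 and Cbr2 summed to 180 to 260 CPM in vehicle and 98.1 to 269 CPM in combination, and none was at 0 in any library. In combination 5 of the 6 had a negative log2 difference from vehicle (median -0.28) and none passed the adjusted threshold of 0.05. Folr2, the folate receptor beta of resident macrophages, had the most negative value at -1.49 ± 0.45 (adjusted p = 0.158), and Lyve1, a hyaluronan receptor, was at -0.95 ± 0.30 (adjusted p = 0.191). Most of the sum came from Mrc1 and F13a1, with vehicle means of 85.1 and 75.5 CPM against 4.67 CPM for Folr2 and 24.7 CPM for Lyve1. As a share of the summed markers, Timd4 was 0.721% to 2.37% in vehicle (median 1.51%) and 0.162% to 0.585% in combination (median 0.303%). These shares did not overlap, which is a description, since Timd4 was chosen on this contrast. With the mean level of the list as a term in the fit, the log2 difference was -1.93 ± 0.47 and the call was lost (adjusted p = 0.11).

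Kupffer cells and B cells can also carry Timd4, and their markers were low in vehicle and combination. Of the 4 Kupffer cell markers, the sum was 0.156 to 1.78 CPM in vehicle and 0.0631 to 1.22 CPM in combination, and Clec4f was at 0 in the median vehicle library. The sum was higher in the 3 libraries with liver transcripts, at 7.38 (ERKi 3), 6.67 (CDKi 1) and 6.61 CPM (CDKi 3). Timd4 in these was 1.5, 1.03 and 4.84 CPM. Vsig4, the Kupffer cell marker that passed the count filter, differed by -1.35 ± 0.83 in combination (adjusted p = 0.562 by edgeR). The part of Kupffer cells in the Timd4 levels was not tested. Of 6 B cell markers only Bank1, a B cell adaptor gene, passed the count filter; it was 3.79 to 6.61 CPM in vehicle and 0.901 to 2.27 CPM in combination (log2 fold change -1.49 ± 0.25, adjusted p = 0.0313). Cd79a, Cd79b, Ms4a1 and Pax5 stayed at or below 0.893 CPM in every library. The summed B cell list was 4.17 to 9.29 CPM in vehicle and 1.38 to 3.5 CPM in combination, without overlap; its part in the Timd4 difference was not tested. Fibroblast markers (Col1a1, Col1a2, Col3a1, Pdgfra, Dcn and Lum) also had lower values in combination: the log2 difference was negative in 6 of 6 (median -1.20), with none called. By edgeR 5 of them had an unadjusted p under 0.05 (11.5% of all tested genes). The sums were 6390 to 14200 CPM in vehicle and 2890 to 7410 CPM in combination. Within groups Timd4 went with the fibroblast list (Pearson r = 0.536, permutation p = 0.0145, adjusted p = 0.0412; Spearman rho = 0.727, p = 0.00015, adjusted p = 0.0027), at r = 0.558 without the 2 libraries farthest from the median marker level; the part of these cells in the difference was not tested.

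**Figure D2:**
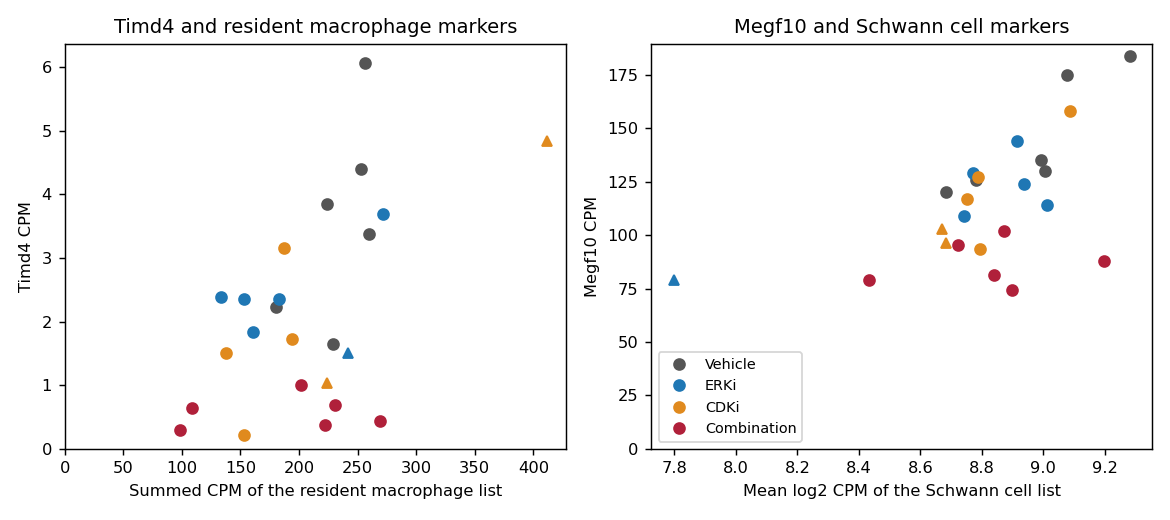
Left, Timd4 CPM against the summed CPM of the 6 resident macrophage markers; right, Megf10 CPM against the mean log2 CPM of the 6 Schwann cell markers, each point a library coloured by group, with triangles for the 3 libraries with liver transcripts. Combination libraries lie between 98.1 and 269 CPM of macrophage markers and between 0.3 and 1.01 CPM of Timd4.

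Megf10 (chr18:57133090-57297467, plus strand) was well expressed in every nerve. Vehicle libraries held 175, 130, 120, 135, 184 and 126 CPM. Combination libraries held 81.4, 79.1, 95.4, 74.3, 88.1 and 102 CPM, all below the lowest vehicle library. The highest vehicle values, in vehicle 1 and 5, were in neuron-poor libraries, as were the 95.4 and 88.1 CPM of combination 3 and 5. ERKi ran from 78.9 to 144 CPM (median 119) and CDKi from 93.7 to 158 CPM (median 110), between the other groups and overlapping both. The combination was 1.67-fold lower than vehicle (log2 fold change -0.74 ± 0.15, adjusted p = 0.0429 by edgeR). ERKi and CDKi each differed by -0.32 ± 0.15, with adjusted p = 0.672 and 1. Their sum lay within the error of the combination, whose departure from it was -0.10 ± 0.21 (95% interval -0.53 to 0.33).

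Schwann cell markers overlapped between the groups. The list of 6, with the Schwann lineage factor Sox10 and the neuregulin receptor gene Erbb3 among them, had a mean level of 8.68 to 9.28 log2 CPM in vehicle and 8.43 to 9.20 log2 CPM in combination. The median log2 difference over the 6 was -0.002, and none passed the threshold. The lowest was that of S100b, a calcium-binding protein of Schwann cells, at 695 ± 195 CPM in vehicle and 481 ± 188 CPM in combination (-0.53 ± 0.24, adjusted p = 0.382). Of 7 myelin genes, which myelinating Schwann cells express, 7 had a negative log2 difference in combination (median -0.38, lowest -1.03). None of these was called, and 2 had an unadjusted p under 0.05 by edgeR (11.5% of all tested genes). The sums overlapped, at 16600 to 25600 CPM in vehicle and 5410 to 21700 CPM in combination. The part of the myelin genes in the Megf10 difference was not tested. With the mean level of the Schwann cell list as a term in the fit, the Megf10 difference was -0.63 ± 0.11 (adjusted p = 0.0401). No fit had a term for the myelin genes. Satellite glia, the glia that wrap sensory neurons, are another source: their 4 markers summed to 401 to 775 CPM in vehicle and 323 to 578 CPM in combination, with a median log2 difference of -0.40. Megf10 was 24.8 ± 6.11% of the satellite glia sum in vehicle and 19.6 ± 4.38% in combination, with overlap. Of the summed Schwann cell markers it was 2.87% to 4.16% in vehicle and 1.53% to 2.93% in combination, also with overlap.

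Stab1 (chr14:31139013-31168641, minus strand), the scavenger receptor of resident macrophages and sinusoidal endothelium, overlapped between all groups. Vehicle libraries ran from 82.6 to 131 CPM (median 99.8) and combination libraries from 44.3 to 150 CPM (median 89), a log2 difference of -0.14 ± 0.26 (95% interval -0.68 to 0.40; adjusted p = 0.897). The ERKi median was 92.9 CPM and the CDKi median 102 CPM. Its highest value, 214 CPM, was in CDKi 3, a library with liver transcripts. All 7 endothelial markers had a positive log2 difference in combination (median 0.775) and none was called. By edgeR 7 had an unadjusted p under 0.05 (11.5% of all tested genes). They summed to 96.2 to 190 CPM in vehicle and 147 to 407 CPM in combination, and their part in the Stab1 level was not tested. Stab1 was 43.7 ± 4.96% of the resident macrophage sum in vehicle and 49.6 ± 10% in combination. Its exons overlap those of Nt5dc2 on the opposite strand, a gene of at most 4.56 CPM, and the strand setting of the counting is not given in the sources used here.

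Among the TAM receptors, Mertk (chr2:128698956-128802894, plus strand), the main efferocytosis receptor of tissue macrophages, held 106, 131, 72.7, 271, 117 and 127 CPM in vehicle. In ERKi it held 129, 95.4, 34.5, 102, 78.6 and 80.6 CPM, so vehicle 4 was high, ERKi 3 was low and the groups overlapped. The log2 difference of ERKi from vehicle was -0.67 ± 0.31 (adjusted p = 0.672). It was -0.51 without ERKi 3, and -0.36 without vehicle 4. Combination ran from 64.8 to 185 CPM, with a log2 difference of -0.18 ± 0.31 (95% interval -0.82 to 0.46) that was 0.13 without vehicle 4. CDKi ran from 101 to 219 CPM.

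Axl (chr7:25757273-25788705, minus strand), the TAM receptor that responds to inflammation, held 498, 421, 319, 616, 447 and 320 CPM in vehicle. Combination libraries ran from 245 to 613 CPM and CDKi libraries from 393 to 523 CPM, both overlapping vehicle. Their log2 differences were -0.06 ± 0.23 and 0.06 ± 0.23, and both signs turned in some alternative fits (3 and 4 of 39). In ERKi 5 of 6 libraries lay below the vehicle mean, from 129 to 458 CPM, and the log2 difference was -0.45 ± 0.23 (adjusted p = 0.672), or -0.29 without ERKi 3.

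Tyro3 (chr2:119797733-119818104, plus strand), a TAM receptor found in neurons and in dendritic cells, ran from 4.42 to 17 CPM in combination and from 9.46 to 15.5 CPM in vehicle, with 5.58 to 14 CPM in CDKi and 9.86 to 19 CPM in ERKi. No group separated from another. Its largest log2 difference from vehicle was -0.46 ± 0.26 in CDKi (95% interval -0.99 to 0.07).

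The ligands overlapped between combination and vehicle. Gas6 (chr8:13465374-13494490, minus strand), which binds all of the TAM receptors, held 38.4, 56.6, 52.7, 59.8, 42.1 and 59.1 CPM in vehicle and 57.5, 95.4, 107, 54, 46 and 56.9 CPM in combination. The combination values were widely spread, with combination 2 and 3 high. The log2 difference was 0.43 ± 0.21 (adjusted p = 0.44). For ERKi, all 6 libraries lay above the vehicle mean of 51.4 CPM, with a log2 difference of 0.40 ± 0.21 (adjusted p = 0.672) that was 0.26 without ERKi 3. Exons of Gas6 overlap Tmem255b on the opposite strand, a gene of at most 3.06 CPM.

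Pros1 (chr16:62854307-62929346, plus strand), which encodes protein S, ran from 91.5 to 157 CPM in vehicle and from 75 to 158 CPM in combination (log2 difference -0.25 ± 0.22, adjusted p = 0.74). In ERKi it ran from 43.4 to 148 CPM, with a log2 difference of -0.54 ± 0.22 (adjusted p = 0.672). The lowest value was again in ERKi 3, and the log2 difference was -0.40 without that library.

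Mfge8 (chr7:79133768-79149060, minus strand), the bridge from phosphatidylserine to integrins, held 30.7, 28.8, 35.7, 40.9, 32.2 and 31.1 CPM in vehicle. Combination libraries held 22.9, 18.4, 27.2, 23.5, 29 and 20.1 CPM, all below the vehicle mean of 33.3 CPM, with combination 5 above the lowest vehicle library. The log2 difference was -0.50 ± 0.23 in combination (adjusted p = 0.396) and -0.60 ± 0.23 in ERKi (adjusted p = 0.672), where all 6 libraries also lay below the vehicle mean. In CDKi the log2 difference was 0.02 ± 0.23.

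**Figure D3:**
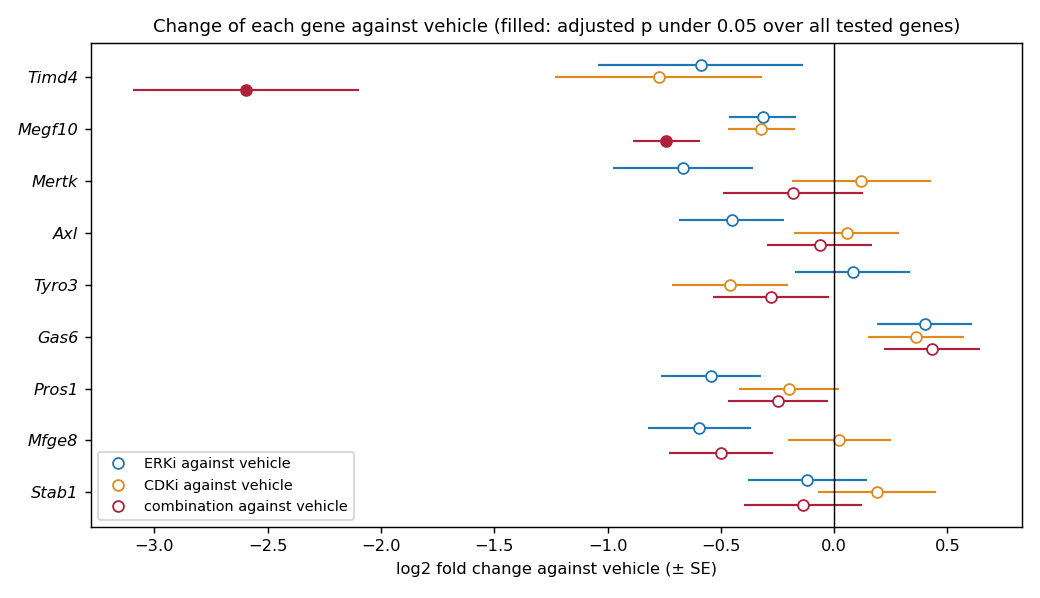
Log2 fold change of each gene against vehicle (horizontal axis), with bars for the standard error and a colour for each treatment; filled points have an adjusted p under 0.05 over all tested genes. The filled points are Timd4 at -2.60 and Megf10 at -0.74, both in the combination.

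By the adjusted threshold of edgeR, 2 of the 9 genes were called in combination against vehicle, both lower. Of all tested genes 0.123% were called there, and 0.11% were called lower. No reading is taken from that excess, since the genes were chosen with this contrast known. The 9 genes had a median log2 difference of -0.25 in combination, against 0.04 over all tested genes, and 8 of the 9 were negative. Against ERKi, 0 of the 9 were called (0% of all tested genes), and against CDKi 0 of the 9 (0.0065%), although DESeq2 called Timd4 in both (DESeq2 called 0.228% and 0.58% of all genes there). None of the 9 was called in ERKi or CDKi against vehicle, or in the departure from additivity, nor by DESeq2 or limma there (edgeR called 0% of all genes in each). At an unadjusted p under 0.05, edgeR had 4 of the 9 in ERKi against vehicle (6.34% of all tested genes), 1 in CDKi (3.12%), 3 in combination (11.5%), 2 in combination against ERKi (9.34%), 3 in combination against CDKi (7.07%) and 0 for the departure from additivity (3.69%). In the test over the 4 groups together edgeR called 0% of all genes, with an adjusted p of 0.233 for Timd4 and 0.27 for Megf10; 3 of the 9 had an unadjusted p under 0.05 (8.14% of all tested genes). The libraries of combination and vehicle did not overlap for 2 of the 9, against 0.858% of all tested genes. The comparisons with vehicle share the same 6 vehicle libraries.

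Alternative fits kept the direction of the Timd4 and Megf10 differences but often not the call. Over 39 alternatives the Timd4 difference ran from -2.82 to -1.93, with the call kept in 18 and lost in 21; the smallest, -1.93 against -2.60 as reported, came with the resident macrophage list as a term. For Megf10 it ran from -0.85 to -0.61, with the call kept in 11 and lost in 28. Without the 6 neuron-poor libraries, Timd4 differed by -2.77 (adjusted p = 0.228) and Megf10 by -0.61 (adjusted p = 0.611). Within sample titles numbered below 5000 (3 combination, 2 vehicle libraries) the log2 CPM of Timd4 differed by -2.75, and above 5000 (3 and 4) by -2.14. The same differences for Megf10 were -0.83 and -0.67. Their sign turned between the title series for Gas6 (0.846 and -0.023), Axl (-0.41 and 0.198) and Mertk (-0.416 and 0.195). Both were negative for Tyro3 (-0.11 and -0.632), Pros1 (-0.431 and -0.08), Mfge8 (-0.399 and -0.538) and Stab1 (-0.11 and -0.44).

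**Figure D4:**
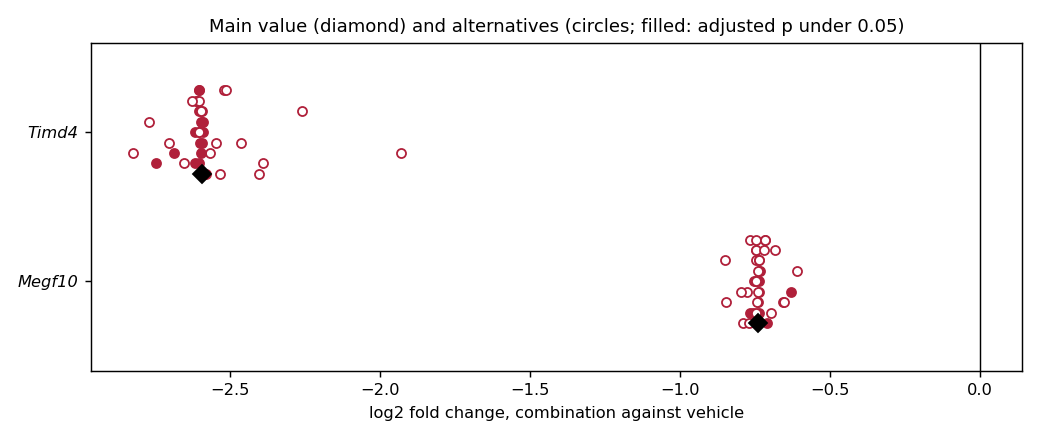
Log2 fold change of Timd4 and Megf10 in combination against vehicle (horizontal axis) in the fit as reported (diamond) and in 39 alternatives (circles), filled where the adjusted p is under 0.05. All points lie below 0, from -2.82 to -1.93 for Timd4 and from -0.85 to -0.61 for Megf10.

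The other genes of the pathway were followed through 6 lists of 81 genes, of which 77 were tested. In combination against vehicle 1 of the 77 was called by edgeR, which called 0.123% of all tested genes there, and 7 were called by DESeq2, which called 1.84% of all genes. The gene called by edgeR was Thbs1, which encodes thrombospondin-1, a matrix protein that bridges dying cells to CD36 and integrins. It held 200 to 540 CPM in vehicle and 34.1 to 157 CPM in combination, without overlap (lower without overlap were 0.578% of all tested genes), and was 5.01-fold lower (log2 fold change -2.33 ± 0.44, adjusted p = 0.0361). ERKi was intermediate at 40.1 to 324 CPM (-1.04 ± 0.43, adjusted p = 0.672) and CDKi was at 153 to 508 CPM. The median over the 77 genes was -0.08, against 0.04 over all tested genes. At an unadjusted p under 0.05 there were 17 of the 77 in combination against vehicle, 12 of them lower (11.5% of all tested genes had such a p). In the other comparisons edgeR called 0 of the 77. The number with an unadjusted p under 0.05 was 9 in ERKi against vehicle (6.34% of all tested genes), 4 in CDKi against vehicle (3.12%), 13 in combination against ERKi (9.34%), 13 in combination against CDKi (7.07%) and 7 for the departure from additivity (3.69%). In combination against CDKi, DESeq2 called 2 of the 77 (0.58% of all genes) and limma called 1 (0.026%).

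Of 19 tested receptors outside the 9 genes, 12 had a negative and 7 a positive log2 difference in combination, and none was called. Itgb3, the integrin beta chain that takes up MFG-E8-coated cells with alpha-v, had the smallest p of this list: 28 to 99.1 CPM in vehicle and 14 to 34.6 CPM in combination (-1.66 ± 0.38, adjusted p = 0.077). Colec12, a scavenger receptor of the collectin family, followed at -0.90 ± 0.23 (adjusted p = 0.101). Among 12 tested bridging molecules and opsonins 8 were negative; after Thbs1 came Calr, the eat-me signal calreticulin, at -0.51 ± 0.16 (adjusted p = 0.187). Engulfment signalling genes lay near 0, with a median of -0.02 over 11. The smallest p values there were those of Elmo2, a partner of the Rac activator DOCK1, at -0.18 ± 0.09 (adjusted p = 0.421), and of the adaptor Gulp1 at -0.38 ± 0.22 (adjusted p = 0.533).

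The list of nuclear receptors and lipid efflux, through which a phagocyte disposes of ingested cholesterol, had the highest median, 0.25 over 10 genes, with 7 positive and none called. Abca1, the cholesterol exporter, held 214 to 700 CPM in vehicle and 400 to 974 CPM in combination (0.91 ± 0.29, adjusted p = 0.194), with overlap. Abcg1, a second exporter, differed by 0.40 ± 0.15 (adjusted p = 0.253). The exposure, find-me and stop signals had a median of -0.04 over 14 genes. P2ry12, the nucleotide receptor that steers microglia-like cells, was at -0.74 ± 0.18 (adjusted p = 0.0904), and S1pr1, a receptor for the find-me lipid sphingosine-1-phosphate, at 0.86 ± 0.23 (adjusted p = 0.123).

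Genes that activate, shed or answer the TAM receptors had the lowest median, -0.37 over 11, with 10 negative and none called. Ifnar1, the interferon receptor chain that pairs with TAM receptors, differed by -0.37 ± 0.11 (adjusted p = 0.142).

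**Figure D5:**
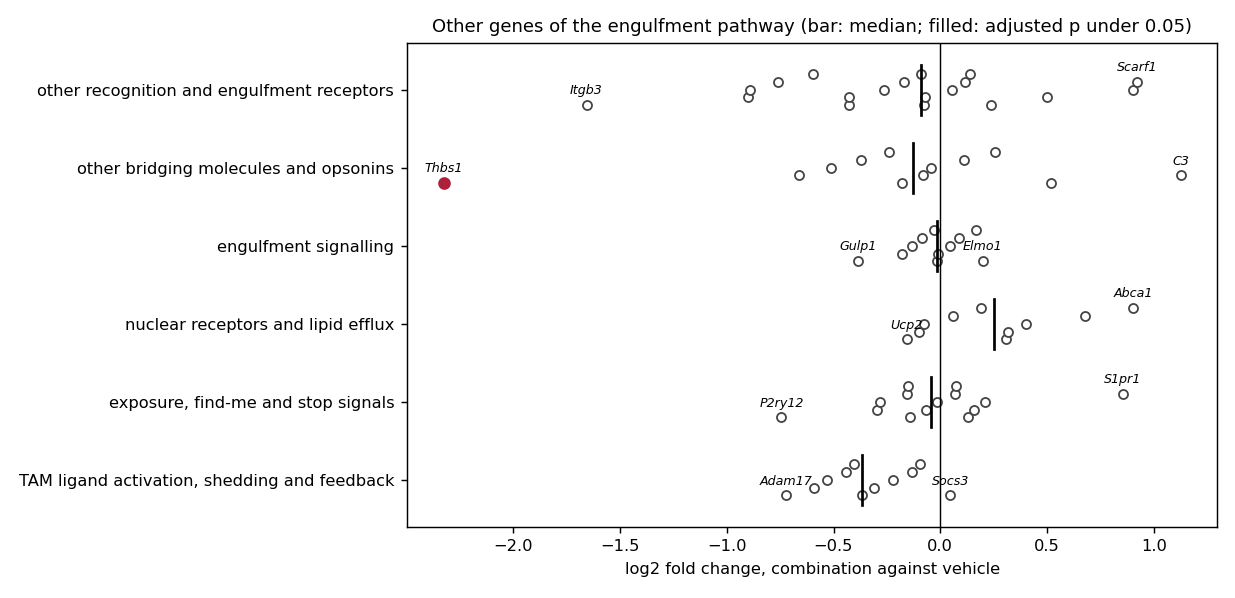
Log2 fold change in combination against vehicle (horizontal axis) of the 77 tested pathway genes in 6 lists, with the median of each list as a bar. Thbs1, at -2.33, is the one filled point, and the list medians run from -0.37 to 0.25.

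Levels of the 9 genes were then compared with cell type markers across libraries, after removing the group means, a measure the choice of genes did not use. Over 54 relations, 22 had an adjusted p under 0.05 (permutation within groups, two-sided, Benjamini-Hochberg over the 54). None of the 22 changed sign over 4 alternative settings, 1 of which left out the 3 libraries with liver transcripts. Their size changed unevenly over these settings, and some rose in a setting. Timd4 with the fibroblast list, 0.536 as reported, ran from 0.474 to 0.65. Axl with the Schwann cell list went from 0.813 to no less than 0.69, and Mfge8 with the endothelial list from 0.544 to as low as 0.253. Leaving out the 3 libraries left 1 of the 22 called. That 1 was Stab1 with the resident macrophage list: Pearson r = 0.849 over 24 libraries (permutation p = 3e-05, adjusted p = 0.00162) and Spearman rho = 0.801 (adjusted p = 0.00054). It was 0.734 without the pair of libraries farthest from the median marker level. Timd4 had r = 0.562 with the same list (permutation p = 0.0177, adjusted p = 0.0472), with rho = 0.446 (p = 0.0354, adjusted p = 0.101) and r = 0.394 without the farthest pair, so this relation rests partly on those libraries. With the separate list of 9 macrophage markers, Timd4 had r = 0.198 (permutation p = 0.348, adjusted p = 0.437). Stab1 had r = 0.71 with that list (permutation p = 0.00168, adjusted p = 0.0152).

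Megf10 followed the Schwann cell list with r = 0.703 (permutation p = 0.00086, adjusted p = 0.0127), rho = 0.654 (p = 0.00121, adjusted p = 0.0109) and r = 0.601 without the farthest pair. Axl had r = 0.813 with that list (permutation p = 0.00094, adjusted p = 0.0127), rho = 0.59 (p = 0.00707, adjusted p = 0.0333) and 0.554 without the pair. Gas6 went the other way, at r = -0.663 (permutation p = 0.0003, adjusted p = 0.0081), rho = -0.738 (p = 2e-05, adjusted p = 0.00054) and -0.554 without the pair. Mertk had a negative relation to the macrophage list: r = -0.593 (permutation p = 0.0018, adjusted p = 0.0152), rho = -0.613 (p = 0.00317, adjusted p = 0.0218) and -0.668 without the pair. With the resident macrophage list it had r = -0.237 (permutation p = 0.271, adjusted p = 0.367). With the Schwann cell list its r was 0.617 (permutation p = 0.00985, adjusted p = 0.0313), with rho = 0.41 (p = 0.0507, adjusted p = 0.137) and 0.305 without the pair.

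Libraries were split at a mean neuron marker level of 6 log2 CPM. The neuron-poor libraries were spread from 1.28 to 5.01 log2 CPM, and the neuron-rich ones began at 6.64. Relations to neuron markers were taken within the 18 neuron-rich libraries. Tyro3 went with the sensory neuron list there (r = 0.661, permutation p = 0.00572, adjusted p = 0.0257; rho = 0.593, p = 0.0125, adjusted p = 0.0483), at 0.452 without the farthest pair. Axl went against it (r = -0.81, permutation p = 0.00398, adjusted p = 0.0215; rho = -0.674, p = 0.00758, adjusted p = 0.0333), at -0.728 without the pair. In the 6 neuron-poor libraries, given without a p, r was 0.527 for Tyro3 and -0.936 for Axl; without the farthest pair it was -0.308 for Tyro3, so that its sign turned, and -0.772 for Axl. ERKi 3 had both the highest neuron level and liver transcripts, and neither relation was called without the 3 libraries with liver transcripts.

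Among the 9 genes themselves, with group means removed over 24 libraries that share depth and tissue makeup, Mertk and Axl went together (r = 0.763). So did Axl with Mfge8 (0.714) and with Pros1 (0.706), and Pros1 with Mfge8 (0.68). Axl and Tyro3 were opposed (-0.644). Timd4 and Megf10, the 2 genes that separated combination from vehicle, were unrelated within groups (-0.082).

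The tested genes most like each of the 9, by Pearson r of log2 CPM over the 24 libraries with group means removed, are named as a description. Timd4 was most like Hist1h2ak (0.755), Ckap2 (0.739) and Nusap1 (0.68). Without the 2 libraries farthest from the median level of Timd4 itself, group means removed, these were 0.574, 0.483 and 0.657. Megf10 was most like Itih5 (0.838), Ddit3 (0.815) and Ttyh2 (0.806), and Stab1 like Pabpc1 (0.853), Nfam1 (0.845) and Unc93b1 (0.844). Mertk was most like Cdc37l1 (0.957), Fam53b (0.947) and Otud7b (0.935), Axl like Frmd8 (0.951), Ndst1 (0.946) and Arhgef26 (0.939), and Tyro3 like Slc2a6 (0.915), Meg3 (0.91) and Camk1g (0.909). Gas6 was most like Bnc2 (0.931), Aldh1a3 (0.89) and Actn1 (0.885), Pros1 like Anxa1 (0.948), Cd109 (0.921) and Lpar4 (0.907), and Mfge8 like Igfbp6 (0.908), Lamb2 (0.878) and Gpc4 (0.873). The closest partners of Timd4 were less alike than those of the other 8 genes, and Timd4 had the fewest reads.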

How the data were processed

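The table the authors deposited holds unscaled read counts for each gene, with 1 column per sample and no pooling. Per the submitters' processing notes, FastQC, STAR, DESeq2 and the mouse build mm10 were used; each of counting program, annotation, version and strand setting is not given in the sources used here. Per the labels, libraries came from total RNA after ribosomal RNA removal, although the molecule is labelled polyA RNA. Groups follow the treatment label. The 9 genes, the pathway lists and the marker lists were chosen with earlier results of these data known.

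Counts were fitted with edgeR 4.0.16 in R 4.3.3: TMM scaling, filterByExpr (minimum count 10, minimum total 15), and a robust quasi-likelihood test over all 24 libraries, with Benjamini-Hochberg adjustment over 15385 genes and a threshold of 0.05. CPM uses the TMM-scaled totals; log2 CPM has a prior count of 2. The biological coefficient of variation was 35.9%. At these depths 3 reads equal 0.0697 to 0.536 CPM, which covers counting error only. Lengths and positions come from GENCODE M21 on GRCm38, which may differ from the annotation the authors counted with. No pair of libraries within a group agreed within sampling noise: the chi-square per degree of freedom was at least 19.5 over 60 pairs.

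Named are the 9 genes, each called pathway gene, the 2 pathway genes of smallest p in each list for combination against vehicle, the 3 genes most like each of the 9, and marker genes beside a result; a few genes of these lists are not reported here by name. Relations to marker levels used 100000 permutations within groups. Further marker lists, some of them also given above, with the range of summed CPM in vehicle and in combination, were macrophage (260 to 410 and 131 to 611), liver sinusoidal endothelium (2.65 to 6.25 and 1.33 to 4.55), hepatocyte (0.384 to 5.42 and 0.253 to 1.45), sensory neuron (48.4 to 2680 and 65.2 to 3830), myelin (16600 to 25600 and 5410 to 21700), fibroblast (6390 to 14200 and 2890 to 7410), endothelial (96.2 to 190 and 147 to 407), adipocyte (12.2 to 106 and 31.6 to 155), skeletal muscle (1.32 to 5.71 and 1.14 to 84.5) and muscle satellite cell (0 to 1.61 and 0 to 0.532). Alternatives were DESeq2 1.42.0, limma 3.58.1 (voom with quality weights), other scalings, filters and sample sets, a term for title series or a marker list, and each library left out; the terms for resident macrophages and Schwann cells, and the fits without neuron-poor libraries or without the deepest and shallowest library, were chosen after seeing the data.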

Additional observations from a re-analysis of the deposited data

Results flagged for a closer look

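Mertk and Axl each had 1 library far from the other 5 of the ERKi group. Mertk was 34.5 CPM in ERKi 3 against 78.6 to 129 CPM in the others, and Axl was 129 CPM there against 293 to 458 CPM. Over 36 groups tested on log2 CPM (9 genes in 4 groups), chance flags about 1 in 20. ERKi 3 also contained liver transcripts (Alb at 4540 CPM) and had the highest sensory neuron level and the lowest Schwann cell list level of its group, 7.80 log2 CPM against 8.74 to 9.01 log2 CPM in the others. The part of these in the low values was not tested.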

How the results depend on the processing

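No result of the 9 genes with an adjusted p under 0.05 changed direction under the 39 alternatives. Timd4 kept its call in combination against vehicle when vehicle 4, ERKi 2, 3, 5 or 6, or CDKi 1, 2, 3 or 5 was left out (adjusted p 0.0153 to 0.0499), and lost it without any other single library (0.0509 to 0.113). Megf10 kept it only without vehicle 4, ERKi 3 or CDKi 2 (0.0239 to 0.0447) and lost it otherwise (0.0546 to 0.169). In the other 15 alternatives the adjusted p ran from 0.000179 to 0.229 for Timd4 and from 0.00121 to 0.611 for Megf10. The number of the 9 genes called there was 2 as reported, and 0 to 2 with a library left out. It was 1 with the CPM filter, with only the groups compared, and with a term for title series, macrophages or Schwann cells. It was 0 with no count filter, with a term for resident macrophages, without neuron-poor libraries and without the deepest and shallowest library. DESeq2 called 1, Timd4, against ERKi (adjusted p = 0.0293) and 1, again Timd4, against CDKi (0.0374). The pathway count was 1 as reported, 7 by DESeq2, 3 without the libraries with liver transcripts, 0 to 4 with a library left out, and 0 with no count filter, a term for title series, resident macrophages or Schwann cells, without neuron-poor libraries and without the deepest and shallowest library. Against CDKi it was 0 as reported, 2 by DESeq2, 1 by limma and 0 to 1 with a library left out. Relations to markers numbered 22 as reported and 1 without the libraries with liver transcripts. The cause of these changes was not tested.

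Over all genes, 19 were called in combination against vehicle as reported, with 272 by DESeq2, 108 without libraries with liver transcripts, 37 with a neuron term, 30 by limma, 11 with a Schwann cell term, 10 with only the groups compared, 6 with no count filter, 5 with a resident macrophage term, 1 without the deepest and shallowest library and 0 without neuron-poor libraries. DESeq2 called 2 genes for ERKi and 30 for CDKi against vehicle, 35 and 84 for combination against ERKi and CDKi, and 51 for the departure from additivity, where edgeR called 0, 0, 0, 1 and 0. Axl, Gas6, Mertk, Mfge8, Stab1 and Tyro3 changed sign in at least 1 alternative in a comparison with vehicle, all at values that were not called. No paired analysis was possible because the labels give no replicate numbers. Depth limits Timd4 most: its combination libraries rest on 5 to 16 reads.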
